A study of Saccharomyces cerevisiae with 6 samples.

Results

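The 10 genes described here encode proteases of yeast mitochondria, ATP-dependent or not, and the peptidases that cut or destroy targeting presequences: YME1, AFG3, YTA12, PIM1, OMA1, PCP1, MAS1, MAS2, OCT1 and CYM1. They were taken from a list of gene names, and each was found as a locus of its own among the 6931 loci of the deposited tables. RNA was sequenced from 6 samples of the budding yeast Saccharomyces cerevisiae W303 in 3 groups of 2. The first group was the wild type (WT). The second carried a 2µ plasmid, a multicopy plasmid, that expressed PSD1 from the GAL promoter, a promoter switched on by galactose (PSD1_oe). The third carried the same plasmid and lacked PDR3 (PSD1_oe_pdr3del, pdr3∆). All groups are given as grown in 1% yeast extract, 2% peptone and 2% raffinose. The labels give 2% galactose for 4 h for every sample but mark induction as plus or minus without saying which samples received it. The labels name neither clones nor an empty plasmid in WT.

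Most mitochondrial proteins are made in the cytosol with a presequence that guides them into the organelle. In the matrix the presequence is removed by the processing peptidase and in some proteins trimmed further by Oct1, and the freed peptides are degraded by Cym1. Folded state and turnover are watched by proteases of the AAA family in the inner membrane and by the Lon protease Pim1 in the matrix. Psd1, the phosphatidylserine decarboxylase that the plasmid overexpresses, is itself an inner membrane protein made with a presequence, and the study asked how cells respond to stress on mitochondrial import.

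Libraries held 10220872 to 12315448 counts, and the 10 genes together took 0.264% to 0.281% of them in every library. The groups behaved as labelled for the altered genes: PDR3 had 724 and 798 counts in WT, 2283 and 2245 in PSD1_oe and 3 and 9 in PSD1_oe_pdr3del. PSD1 stood at 1479 and 1312 CPM, counts scaled to the library total, in WT, 14446 and 16460 in PSD1_oe and 9432 and 9177 in PSD1_oe_pdr3del. GAL1, the galactokinase gene, had 484 and 230 counts in WT against 61306 to 101214 in the other 4 libraries. PSD1 overexpression and the galactose response therefore cannot be told apart in any comparison with WT, and the PSD1 level also differed between the 2 overexpressing groups. Separate cultures are not named for the 2 samples of a group, and p-values therefore cover only the spread seen between these libraries, which may be technical.

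Levels between genes were compared per length, as FPKM, fragment numbers scaled by transcript length and library size. In WT the genes of the processing peptidase were highest, with MAS2 at 235 ± 1.20 and MAS1 at 230 ± 8.78 FPKM (SD, n = 2), and their libraries overlapped. AFG3 followed at 152 FPKM, YME1 at 142, PCP1 at 131, YTA12 at 117, PIM1 at 111 and CYM1 at 107. Of these, YTA12, PIM1 and CYM1 overlapped each other. OMA1 at 62.3 and OCT1 at 54.7 FPKM were lowest, and by FPKM OCT1 lay below OMA1 in all 6 libraries. Counts divided by length gave the other order for these 2 genes in WT. OCT1 had 1392 and 1543 counts over 2319 bp there, and OMA1 619 and 662 over 1038 bp.

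In PSD1_oe, AFG3 overlapped YME1 and PCP1, and the order by FPKM changed among the higher genes. MAS1 stood alone at the top at 237 ± 7.47 FPKM, MAS2 had dropped to 188 ± 11.4, and PIM1 had moved from the seventh to the third place at 149 ± 0.827. The WT place of PIM1 depended on the unit. By mean counts per length PIM1 lay above PCP1 in WT (4990 counts over 3402 bp against 1493 over 1041 bp), whereas by FPKM it lay below. PSD1_oe_pdr3del showed MAS1 at 244 ± 0.470, MAS2 at 186 ± 8.00 and PIM1 at 136 ± 9.26 FPKM. There AFG3, YME1 and PIM1 overlapped each other, PIM1 overlapped PCP1, and YTA12 overlapped CYM1. OMA1 and OCT1 were the lowest of the 10 in every group. These shifts are taken up gene by gene below on the CPM scale, on which every gene is compared only with itself.

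**Figure D1:**
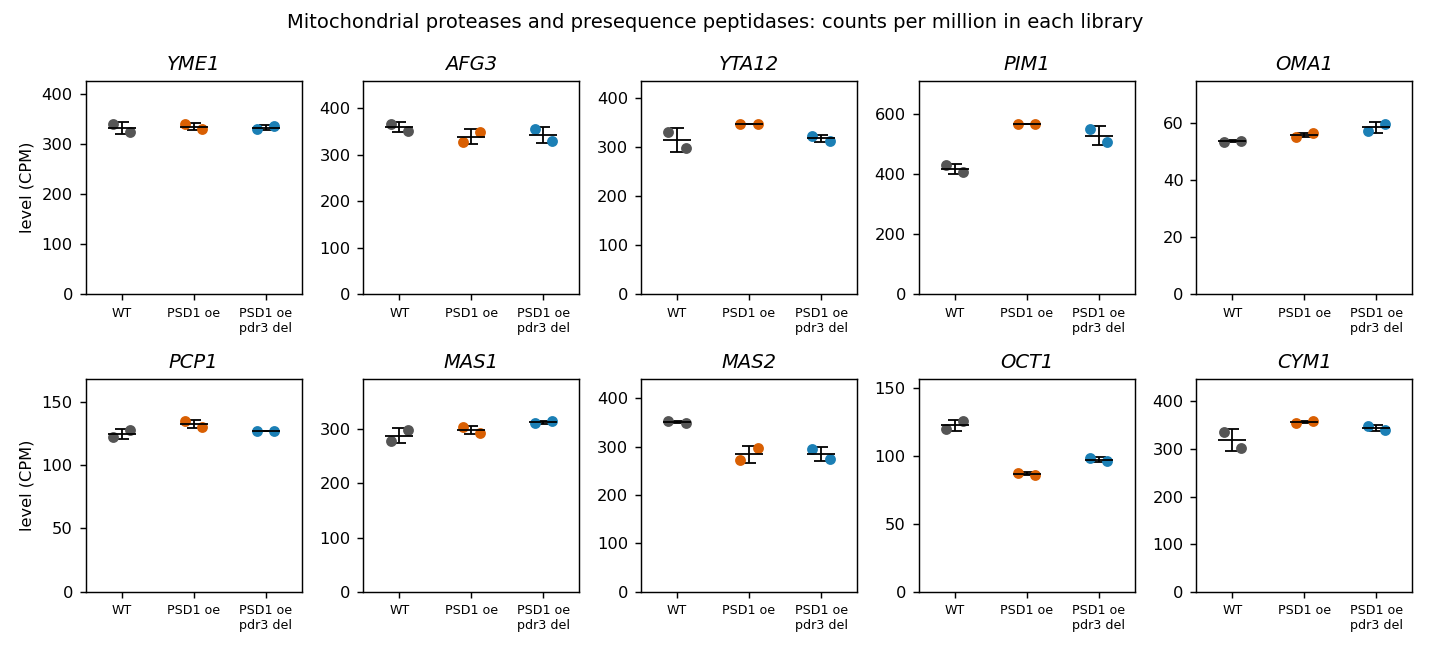
Level of each of the 10 genes in CPM (y axis, from 0, scaled per panel) in the 2 libraries of WT, PSD1_oe and PSD1_oe_pdr3del; points are libraries, bars the mean and SD. PIM1 lies at 406 to 429 CPM in WT and 504 to 567 in the other 4 libraries, while OCT1 and MAS2 lie lower in those 4 than in WT.

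The first comparison, PSD1_oe against WT, asked how these genes respond to PSD1 overexpression. PIM1 and CYM1 rose, OCT1 and MAS2 fell, and the other 6 genes did not pass the test. Of the 10 changes that of OCT1, a 1.42-fold fall, was the largest. With 4 of 10 genes called against 55.8% of all 6171 loci tested (edgeR's quasi-likelihood test, Benjamini-Hochberg adjusted p under 0.05), the share was below that of all loci; 2 were higher (27.9% of all) and 2 lower (27.9% of all). None changed at least 2-fold (4.88% of all), and 5 had an unadjusted p under 0.05 (60.3% of all). The median log2 fold change of the 10 genes was 0.05 (all loci 0.01) and the median absolute log2 fold change was 0.11 (all loci 0.24).

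PIM1 (YBL022C, chromosome II, 177874 to 181275, minus strand, R64 build, a single exon) encodes the ATP-dependent Lon protease of the matrix, which degrades misfolded and damaged proteins. Its level was 429 and 406 CPM in WT, 567 and 566 in PSD1_oe and 549 and 504 in PSD1_oe_pdr3del. Both PSD1_oe libraries lay above both WT libraries, and the 2 PSD1_oe libraries were nearly equal. The rise was 1.35-fold (log2 0.43 ± 0.06 SE, edgeR adjusted p = 0.000106). Across all 17 alternative fits, which include DESeq2, limma on FPKM and each library left out, the log2 change ran from 0.39 to 0.48.

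OCT1 (YKL134C, chromosome XI, 189124 to 191442, minus strand, a single exon) encodes the intermediate peptidase, a metallopeptidase that removes a short second stretch after the processing peptidase has cut. It stood at 120 and 125 CPM in WT, 87.6 and 86.2 in PSD1_oe and 98.3 and 95.8 in PSD1_oe_pdr3del. The 3 groups did not overlap: WT was highest, PSD1_oe lowest and PSD1_oe_pdr3del between them. OCT1 fell by 0.50 ± 0.05 on the log2 scale (edgeR adjusted p = 2.04e-05), the largest absolute change of the 10. Of the tested loci, 78.7% had a smaller absolute change in this comparison.

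MAS2 (YHR024C, chromosome VIII, 157744 to 159192, minus strand, a single exon) encodes the alpha subunit of the processing peptidase, which binds the presequence. It had 352 and 349 CPM in WT, 272 and 296 in PSD1_oe and 294 and 275 in PSD1_oe_pdr3del. The WT libraries lay above the other 4, which overlapped each other. MAS2 fell by 0.31 ± 0.06 (edgeR adjusted p = 0.00104), a 1.24-fold difference. Its partner MAS1 (YLR163C, chromosome XII, 491866 to 493254, minus strand), the catalytic beta subunit, had 279 and 298 CPM in WT and 304 and 294 in PSD1_oe, and the groups overlapped. The log2 difference of MAS1 was 0.04 with a 95% interval from -0.07 to 0.15 (edgeR adjusted p = 0.504). YLR163W-A overlaps MAS1 on the opposite strand over 114 bp and held 108 to 185 counts against 3000 to 3730 for MAS1. No source states whether counting used strand, so reads within those 114 bp cannot be assigned with certainty to 1 of the 2 genes. The rest of MAS1, which is 1389 bp long, is not shared.

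CYM1 (YDR430C, chromosome IV, 1325501 to 1328470, minus strand, a single exon) encodes the metallopeptidase that degrades free presequence peptides. It had 335 and 303 CPM in WT, 355 and 358 in PSD1_oe and 348 and 340 in PSD1_oe_pdr3del, so WT was lowest and its 2 libraries were the furthest apart. The rise was 1.11-fold (0.15 ± 0.06, edgeR adjusted p = 0.0432). This call rested on several choices: it was lost with DESeq2 (adjusted p = 0.0844), with limma on FPKM (0.112), with RLE scaling (0.0502), with only the 2 groups in the fit (0.058), without WT library 2 (0.291), without PSD1_oe library 1 (0.125) and without PSD1_oe library 2 (0.154). Without WT library 2 its log2 change was 0.08. YDR431W overlaps CYM1 on the opposite strand over 81 bp, with 53 to 72 counts.

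The proteases of the inner membrane moved little. AFG3 (YER017C, chromosome V, 189503 to 191788, minus strand) and YTA12 (YMR089C, chromosome XIII, 445609 to 448086, minus strand) encode the subunits of the m-AAA protease, whose active sites face the matrix. AFG3 had 367 and 352 CPM in WT and 327 and 350 in PSD1_oe, a log2 difference of -0.10 (95% interval -0.22 to 0.03, edgeR adjusted p = 0.178). YTA12 had 331 and 297 CPM in WT and 347 and 346 in PSD1_oe, a difference of 0.13 (interval 0.0034 to 0.26, edgeR adjusted p = 0.0764). Neither subunit passed the test, although the CPM ranges of the groups did not overlap for either, as for 8 of the 10 genes and 77.8% of all loci tested. YTA12 did pass without WT library 1, where its log2 change was 0.22 (edgeR adjusted p = 0.00874), and with the replicate number as a block (0.0499), whereas without WT library 2 its log2 change was 0.05 (0.466).

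YME1 (YPR024W, chromosome XVI, 610481 to 612724, plus strand) encodes the i-AAA protease, whose active sites face the intermembrane space. Its level was 341 and 324 CPM in WT, 341 and 330 in PSD1_oe and 330 and 337 in PSD1_oe_pdr3del, with all groups overlapping. The log2 difference in PSD1_oe was 0.0018 with a 95% interval from -0.11 to 0.11 (edgeR adjusted p = 0.977). OMA1 (YKR087C, chromosome XI, 603195 to 604232, minus strand), a metallopeptidase of the inner membrane, had 53.2 and 53.8 CPM in WT and 55.2 and 56.3 in PSD1_oe (0.05, interval -0.08 to 0.18, edgeR adjusted p = 0.5). PCP1 (YGR101W, chromosome VII, 693363 to 694403, plus strand), the rhomboid protease that cuts Mgm1 and Ccp1 within the membrane, had 122 and 127 CPM in WT and 134 and 130 in PSD1_oe (0.08, interval -0.03 to 0.19, edgeR adjusted p = 0.209). For both genes the PSD1_oe libraries lay above those of WT, but neither difference passed the test.

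**Figure D2:**
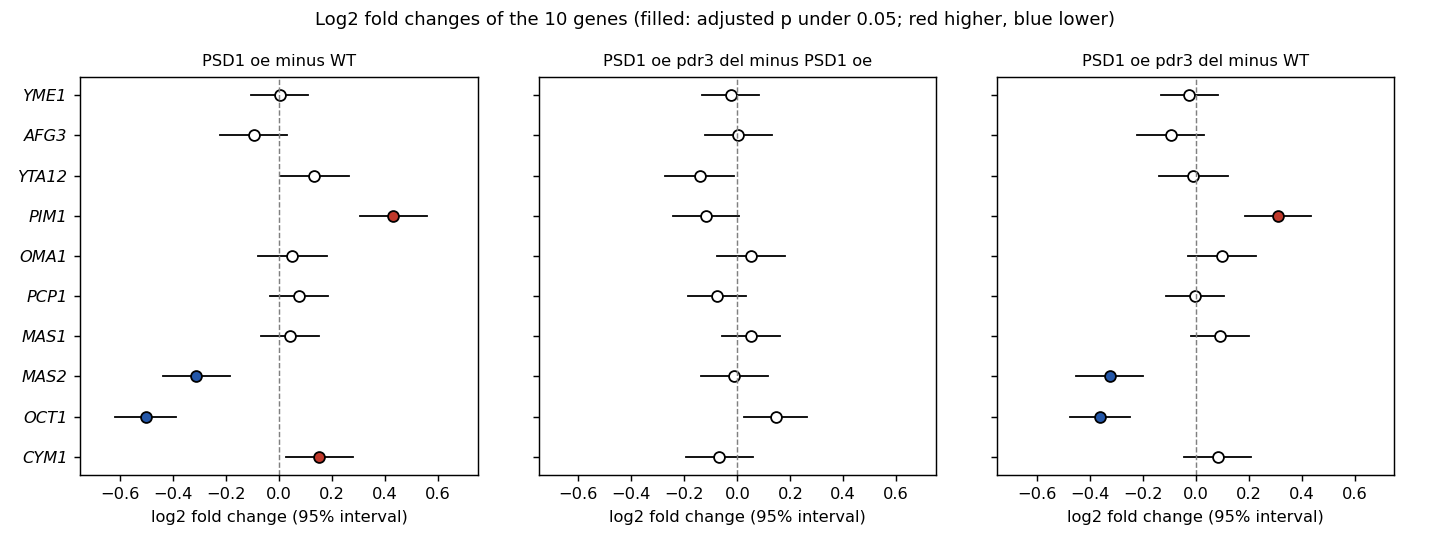
Log2 fold change of each of the 10 genes (x axis) in the 3 comparisons, with its unadjusted 95% interval from the edgeR fit; filled points passed an adjusted p of 0.05 (red higher, blue lower). PIM1 is right of 0 and OCT1 and MAS2 left of 0 in both comparisons with WT, and no point is filled in the comparison between the 2 overexpressing groups.

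The second comparison, PSD1_oe_pdr3del against PSD1_oe, asked which of these genes depend on PDR3, the gene of a transcription factor of drug resistance and efflux genes, while PSD1 is overexpressed. None of the 10 genes passed edgeR's test, against 20.9% of all loci tested, 11.8% higher and 9.12% lower, and none changed at least 2-fold (0.421% of all). The CPM ranges of the groups did not overlap for 7 of the 10, against 63.6% of all loci. At an unadjusted p under 0.05 there were 2, OCT1 and YTA12 (34.3% of all), and DESeq2, limma-voom and limma on FPKM each called 0. YTA12 was called, with a log2 change of -0.14, when either WT library was left out of the shared fit (edgeR adjusted p = 0.047 and 0.0472) or only the 2 groups entered (0.0465). The background count rested on single libraries as well: 1291 loci in the full fit, 535 without PSD1_oe library 1, 233 without PSD1_oe library 2, 796 without PSD1_oe_pdr3del library 1 and 615 without PSD1_oe_pdr3del library 2. The median log2 fold change of the 10 genes was -0.02 (all loci -0.00094), and the median absolute value was 0.06 (all loci 0.12).

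OCT1 was higher in PSD1_oe_pdr3del than in PSD1_oe in both libraries, with a log2 difference of 0.14 (95% interval 0.03 to 0.26, edgeR adjusted p = 0.0792). PIM1 differed by -0.12 (interval -0.24 to 0.0045, edgeR adjusted p = 0.161) and YTA12 by -0.14 (interval -0.27 to -0.01, edgeR adjusted p = 0.114). MAS2 differed by -0.01 (interval -0.14 to 0.12, edgeR adjusted p = 0.916). YME1, AFG3, OMA1, PCP1, MAS1 and CYM1 lay between -0.08 and 0.05, with edgeR adjusted p from 0.3 to 0.977. PSD1 itself was 1.68-fold lower in PSD1_oe_pdr3del, and its part in these differences was not tested.

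The third comparison set PSD1_oe_pdr3del against WT and shares its libraries with both others. PIM1 was higher, OCT1 and MAS2 were lower, and the other 7 genes did not pass, so 3 of 10 were called against 39.1% of all loci tested (19.6% higher, 19.5% lower). None changed at least 2-fold (2.64% of all), 3 had an unadjusted p under 0.05 (47.9% of all), and the CPM ranges did not overlap for 6 (68.7% of all). The log2 changes were 0.31 ± 0.06 for PIM1 (edgeR adjusted p = 0.0015), -0.36 ± 0.05 for OCT1 (edgeR adjusted p = 0.000332) and -0.32 ± 0.06 for MAS2 (edgeR adjusted p = 0.00132). Side by side, PIM1 stood at 0.43 in PSD1_oe and 0.31 in PSD1_oe_pdr3del against the same WT libraries, OCT1 at -0.50 and -0.36, and MAS2 at -0.31 and -0.32. CYM1, at 0.15 in the first, was at 0.08 here (95% interval -0.04 to 0.21, edgeR adjusted p = 0.275), and single WT libraries moved it both ways: it was 0.16 without WT library 1 (edgeR adjusted p = 0.0475) and 0.0080 without WT library 2 (0.933).

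Since the m-AAA protease and the processing peptidase each combine a pair of subunits, the ratio of the partners was taken in every library from FPKM. MAS1 to MAS2 was 0.951 and 1.01 in WT, 1.34 and 1.18 in PSD1_oe and 1.27 and 1.35 in PSD1_oe_pdr3del. The WT libraries lay below the other 4, and the latter overlapped. AFG3 to YTA12 was 1.26 and 1.35 in WT, 1.07 and 1.16 in PSD1_oe and 1.26 and 1.21 in PSD1_oe_pdr3del, with PSD1_oe lowest. The exact two-sided permutation test cannot go below p = 0.333 with 2 libraries against 2, and this was its value for MAS1 to MAS2 in both comparisons with WT and for AFG3 to YTA12 in PSD1_oe against WT and against PSD1_oe_pdr3del. It was 0.667 for the remaining 2 tests. Computed from counts per length, the MAS1 to MAS2 ratio was lower throughout, at 0.859 in WT, 1.10 in PSD1_oe and 1.15 in PSD1_oe_pdr3del.

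**Figure D3:**
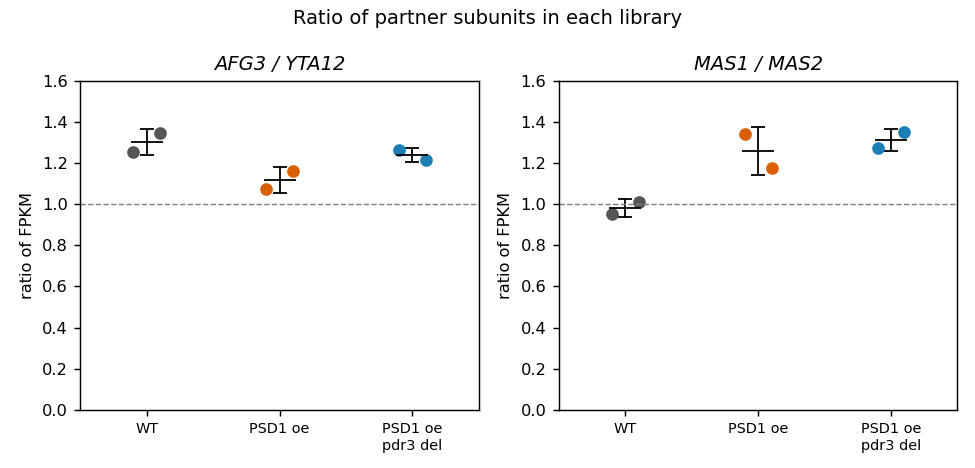
Ratio of the FPKM of partner subunits (y axis, from 0) in each library of the 3 groups, with mean and SD; the dashed line marks equal FPKM. MAS1 to MAS2 lies at 0.951 and 1.01 in WT and between 1.18 and 1.35 in the other 4 libraries.

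The upstream sequences of 3 of the genes called in PSD1_oe against WT are shown. These are CYM1, called higher, and OCT1 and MAS2, called lower. The CYM1 call, as given above, was lost under several alternatives, DESeq2 among them. Each is the 300 bases before the annotated start on the gene's strand, from the RefSeq R64 assembly, which matches the build of the files. Capitals mark matches, on either strand, to the stress response element AGGGG and the CCAAT box; none of the marked matches overlap. In yeast these are known as sites of Msn2 and Msn4 and of the Hap complex, an activator of respiratory genes.
CYM1 (chrIV:1328471-1328770, minus strand): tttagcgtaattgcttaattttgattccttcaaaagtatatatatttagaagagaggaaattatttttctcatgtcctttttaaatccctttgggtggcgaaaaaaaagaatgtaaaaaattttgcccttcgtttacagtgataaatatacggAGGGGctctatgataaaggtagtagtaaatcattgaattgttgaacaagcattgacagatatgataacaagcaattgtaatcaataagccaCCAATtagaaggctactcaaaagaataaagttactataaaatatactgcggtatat
OCT1 (chrXI:191443-191742, minus strand): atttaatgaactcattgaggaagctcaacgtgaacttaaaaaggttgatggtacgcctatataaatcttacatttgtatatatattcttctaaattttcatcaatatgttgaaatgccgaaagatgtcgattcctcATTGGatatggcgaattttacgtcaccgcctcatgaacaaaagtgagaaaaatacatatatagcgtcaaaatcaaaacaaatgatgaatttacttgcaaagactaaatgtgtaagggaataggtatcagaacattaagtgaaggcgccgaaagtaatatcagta
MAS2 (chrVIII:159193-159492, minus strand): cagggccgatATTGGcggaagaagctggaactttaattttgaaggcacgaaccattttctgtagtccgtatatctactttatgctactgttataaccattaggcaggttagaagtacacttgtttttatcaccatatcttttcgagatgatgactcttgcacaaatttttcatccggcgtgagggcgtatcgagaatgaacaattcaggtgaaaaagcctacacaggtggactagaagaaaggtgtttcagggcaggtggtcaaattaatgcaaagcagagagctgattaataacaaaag

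Of the 9 genes whose upstream stretches were searched (all but PIM1), CYM1 alone held AGGGG, 147 bases before its start, against 22.2% of 6001 upstream stretches of the same length. The CCAAT box was found in 8 of the 9, YTA12 being without it, against 41.8% of all stretches. None of the 9 had either heat shock core (TTCNNGAA or GAANNTTC, together in 22.4% of all) or the form TCCGNGGA of the pleiotropic drug response element to which Pdr1 and Pdr3 bind (1.32% of all). CCAAT was searched after the values were seen, together with TATAAA (6 of 9 genes, 48.2% of all), a gapped pair of heat shock half-sites (2 of 9, 33.9%) and TTGGAG (0 of 9, 10.4%). Such matches describe letters in these windows and do not show binding.

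OCT1 was the only member whose log2 change reached 0.5. The 3 loci with the most similar profile over the 6 libraries, by Euclidean distance between centred log2 CPM, were ARO8 (an aromatic aminotransferase gene, distance 0.0353), SAC7 (0.0408), a gene of a GTPase-activating protein, and GRS1 (0.0416), a glycyl-tRNA synthetase gene. GRS1 stood at 923 and 928 CPM (scaled with TMM) in WT, 647 and 646 in PSD1_oe and 728 and 712 in PSD1_oe_pdr3del. Its order of groups, WT, PSD1_oe_pdr3del, PSD1_oe, is that of OCT1, which follows from its choice by nearness to OCT1.

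Related genes were taken from lists made by role. Of 7 genes listed as other mitochondrial peptidases or related to them, 1 was higher in PSD1_oe than in WT and none lower. Among all loci the share was 27.9% in each direction. The gene called was SOM1, needed by the inner membrane peptidase Imp1 (0.46 ± 0.10, edgeR adjusted p = 0.00363). The peptidase genes IMP1, IMP2, ICP55, ATP23 and PRD1 and the ClpX homolog MCX1 lay between -0.06 and 0.14 and were not called in the full fit. PRD1 passed without WT library 1 (0.23, edgeR adjusted p = 0.0162) and ATP23 without WT library 2 (0.21, edgeR adjusted p = 0.0262), which made 2 higher in each case. Of 4 genes of protease cofactors 3 were higher (27.9% of all loci): PHB2 (0.52 ± 0.05, edgeR adjusted p = 8.41e-06) and PHB1 (0.37 ± 0.04), the prohibitins that bind the m-AAA protease, and MGR1 (0.42 ± 0.09, edgeR adjusted p = 0.00271), an adaptor of Yme1. The second adaptor, MGR3, stood at 0.11 ± 0.05 (edgeR adjusted p = 0.0939). Genes of cofactors of both AAA proteases were thus called higher, while AFG3, YTA12 and YME1 did not pass; the difference between the lists was not tested.

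Among 4 matrix chaperone genes whose products fold proteins in the compartment of Pim1, 3 were higher in PSD1_oe (27.9% of all loci): the disaggregase gene HSP78 (3.66-fold), the J-protein gene MDJ1 (2.14-fold) and the Hsp70 gene SSC1 (1.77-fold), with edgeR adjusted p from 2.25e-08 to 1.01e-05. MGE1, the nucleotide exchange factor gene, stood at 0.05 ± 0.05. HSP78 had 382 and 355 CPM in WT and 1319 and 1396 in PSD1_oe, against the 1.35-fold rise of PIM1 in the same libraries. The median log2 fold change of this list was 0.96.

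Of 13 genes that encode known substrates, 2 were higher and 6 lower in PSD1_oe, against 27.9% of all loci in each direction. PSD1, raised by the plasmid, is 1 of the 2; the other is CCP1 (0.61 ± 0.05, edgeR adjusted p = 5.91e-06), cytochrome c peroxidase, which the m-AAA protease and Pcp1 mature. COX4 and RIP1, respiratory chain subunits that Oct1 trims, fell by 1.01 ± 0.05 and 0.73 ± 0.05 (edgeR adjusted p = 1.64e-07 and 9.32e-07) in the libraries in which OCT1 fell by 0.50. A link between these falls and that of OCT1 was not tested, and genes of substrates of other peptidases fell as well, as given below. UPS2, encoding a lipid transfer protein that Yme1 degrades, fell by 1.01 ± 0.05 (edgeR adjusted p = 2.23e-07). UPS1, also on the list, was not called (0.08 ± 0.07, edgeR adjusted p = 0.351). MGM1, the fusion GTPase gene whose product Pcp1 cuts, stood at 0.13 ± 0.06 (edgeR adjusted p = 0.088), and MRPL32, the ribosomal protein gene whose product the m-AAA protease matures, at 0.12 ± 0.05 (0.0807). With 1 library left out, MGM1 ran from 0.07 to 0.20 and passed without WT library 1 (edgeR adjusted p = 0.0241), and MRPL32 ran from 0.06 to 0.19 and passed without PSD1_oe library 1 (0.0346). CYT1, GUT2 and CYB2, whose products the inner membrane peptidase matures, were the other falls, between -0.87 and -0.55. MCR1 and NFS1, also on the list, stood at 0.08 ± 0.05 and -0.02 ± 0.05 and were not called (edgeR adjusted p = 0.146 and 0.777).

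In PSD1_oe_pdr3del against PSD1_oe, none of the 10 genes was called. Lower were 1 of the 7 genes on the other peptidase list (SOM1), 2 of 4 cofactor genes and 3 of 4 chaperone genes. None of these 3 lists held a higher gene, against 9.12% lower and 11.8% higher among all loci. MGR1 differed most, at -0.48 ± 0.09 (edgeR adjusted p = 0.00607), with 52.1 and 51.1 FPKM in PSD1_oe_pdr3del, 75.6 and 69.7 in PSD1_oe and 60.2 and 48.6 in WT. The MGR1 call was lost without PSD1_oe library 1 (edgeR adjusted p = 0.0642) or 2 (0.0501) and with limma on FPKM (0.0504). MDJ1, SSC1 and HSP78 fell by 0.27, 0.39 and 0.34, and all 3 lost their call without PSD1_oe library 2 (edgeR adjusted p = 0.0644, 0.0848 and 0.0921). PHB2 and SOM1 fell by 0.18 and 0.33 and lost their calls without any 1 of the 4 libraries compared (edgeR adjusted p = 0.0592 to 0.196). The PHB2 call was also lost with limma on log2(FPKM + 1) (adjusted p = 0.0623). That of SOM1 was also lost with DESeq2 (adjusted p = 0.196) and in edgeR with library totals alone (0.0518). Of the 13 substrate genes 6 were higher and 1, PSD1, lower. Without either WT library in the shared fit 3 were lower, since CCP1 (-0.16, edgeR adjusted p = 0.0511 with all libraries) then passed (0.0357 and 0.036), as did MGM1 (-0.18, edgeR adjusted p = 0.0624 with all libraries, then 0.0317 and 0.0307). CCP1 also passed under 6 other alternatives, among them limma-voom (adjusted p = 0.0457) and the replicate block (0.0419). COX4 (0.43 ± 0.05, edgeR adjusted p = 0.000617), UPS2 (0.44 ± 0.05, 0.0007) and RIP1 (0.38 ± 0.05, 0.00108) were among the 6. So were CYT1 and GUT2, which limma on log2(FPKM + 1) did not call (adjusted p = 0.064 and 0.105). CYT1 (0.30) and GUT2 (0.31) lost their calls without PSD1_oe library 1 (edgeR adjusted p = 0.0806 and 0.113), PSD1_oe library 2 (0.132 and 0.138) or PSD1_oe_pdr3del library 1 (0.0791 and 0.083).

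**Figure D4:**
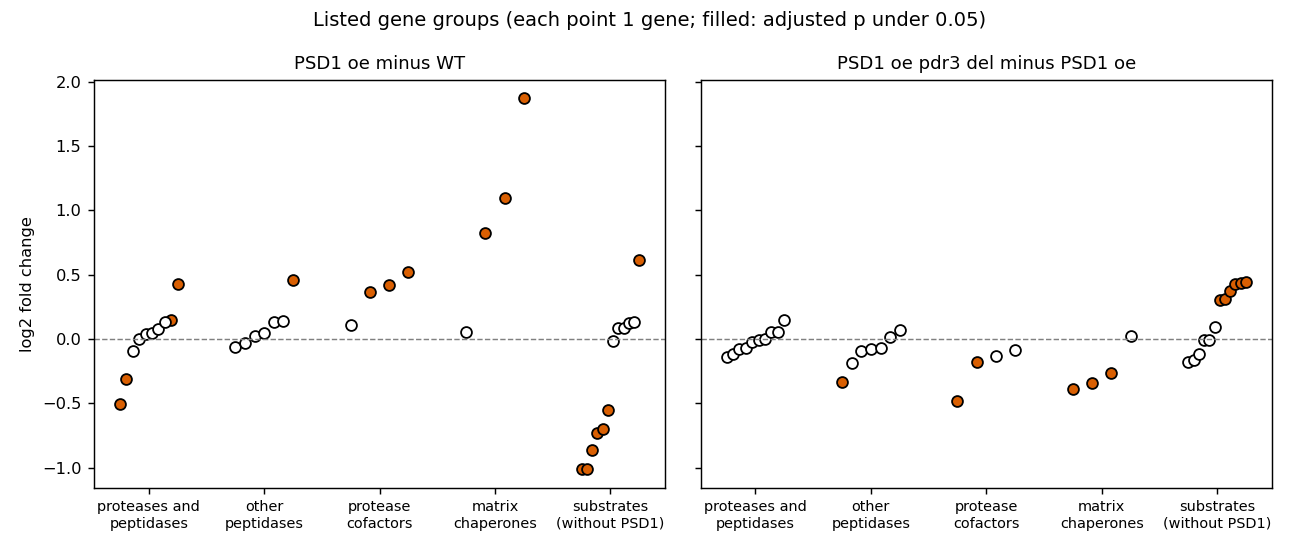
Log2 fold change (y axis) of each gene in 5 lists, in PSD1_oe against WT (left) and PSD1_oe_pdr3del against PSD1_oe (right); each point is 1 gene, filled where the adjusted p was under 0.05, and PSD1 is left out of the substrates. The proteases and peptidases lie between -0.50 and 0.43 on the left, whereas HSP78 reaches 1.87 among the chaperones.

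Against WT, PSD1_oe_pdr3del had 3 of 4 chaperone genes higher (19.6% of all loci), with HSP78 at 1.53, and both prohibitin genes (PHB2 0.34, PHB1 0.28, edgeR adjusted p = 0.00028 and 0.000666). MGR1 was at -0.06 ± 0.09 (edgeR adjusted p = 0.641) in that comparison. Of the other peptidase genes ATP23 was higher (0.21 ± 0.06, edgeR adjusted p = 0.0266) and IMP2 lower (-0.21 ± 0.08, edgeR adjusted p = 0.04997). Both calls were lost with DESeq2 (adjusted p = 0.103 and 0.205); ATP23 lost its call without WT library 1 (0.143) or either PSD1_oe_pdr3del library (0.107 and 0.0705), and IMP2 without any 1 of the 6 libraries (0.0539 to 0.212). Of 13 substrate genes 3 were higher and 6 lower (19.6% and 19.5% of all loci), led after PSD1 by COX4 and UPS2 (-0.58 and -0.57). The fall of NFS1 (-0.14) lost its call with DESeq2 (adjusted p = 0.119) and without any 1 library except WT library 2 (edgeR adjusted p = 0.0728 to 0.198), and the rise of MCR1 (0.18) lost its call without PSD1_oe_pdr3del library 2 (0.052).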

How the data were processed

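Total RNA came from the RNeasy mini-kit, and libraries from Illumina TruSeq reagents, per the labels' protocols. The authors' deposited tables hold raw counts per Cufflinks locus and FPKM of the same loci, with replicates kept apart. The submitters' processing notes name sacCer3 (R64) and, with no role or order, Cufflinks and Cuffdiff (both 2.2.0), SAMtools 0.1.18, TopHat2 2.0.9 and Bowtie2 2.1.0. Neither the counting tool nor its strand setting is stated there. The deposited transcript models equalled the R64 reference in start and end for 99.73% of shared genes.

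Counts were tested with edgeR 4.0.16 (R 4.3.3): TMM scaling, filter by group leaving 6171 loci, quasi-likelihood test over all 6 libraries (3 residual degrees of freedom), Benjamini-Hochberg over all loci, call under 0.05. The SE is the absolute log2 change divided by the square root of F. Intervals use the t distribution and are unadjusted. CPM in the text uses library totals except where TMM is named. DESeq2 1.42.0, limma 3.58.1 (voom, and log2(FPKM + 1) or log2(FPKM + 0.1) at FPKM of at least 1 in 2 libraries), other scalings and filters, a 2-fold minimum, a replicate block and each library left out were alternatives. Replicates differed by more than counting noise (chi-square per degree of freedom 3.01 to 7.15).

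The members and lists were chosen with earlier results of these data known. All 10 members were named, with up to 4 genes per list by smallest p, and the 3 loci nearest each member that changed by at least 0.5. List members named beyond that were chosen after their values were seen. Protein comparisons were planned and not run. The stretch upstream of PIM1 is not reported here.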

Additional observations from a re-analysis of the deposited data

How the results depend on the processing

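The calls of PIM1, OCT1 and MAS2 in both comparisons with WT kept their direction and significance under every alternative except the 2-fold minimum, which left 0 members in each comparison and 301, 26 and 163 of all loci in place of 3443, 1291 and 2415. No called change of a listed gene reversed its sign; some differences near 0 that were not called did. In PSD1_oe_pdr3del against PSD1_oe, fitting only the 2 groups called 1 member (YTA12), and leaving out single libraries gave 0 to 1. All loci called there were 808 with DESeq2, 680 and 683 with limma on log2(FPKM + 1) and log2(FPKM + 0.1), and 233 to 1533 with 1 library left out; the cause was not tested. When an arm is left with 1 library, it is assumed to vary like the others.

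From counts per length, AFG3 to YTA12 was 1.24, 1.06 and 1.17 in WT, PSD1_oe and PSD1_oe_pdr3del, in place of 1.30, 1.12 and 1.24. MAS1 to MAS2 was 0.859, 1.10 and 1.15, in place of 0.981, 1.26 and 1.31. All these shifts except those of AFG3 to YTA12 in WT and PSD1_oe exceeded the SD of the FPKM ratio. The exact permutation test of AFG3 to YTA12 in PSD1_oe_pdr3del against WT gave p = 0.333 in place of 0.667. The cause of these shifts was not tested. The order of levels was the same in TPM, but TPM here is FPKM rescaled within each library. The order inside a library could therefore not change, and this agreement checks nothing. By counts per length the WT order differed for OCT1 with OMA1 and for PIM1 with PCP1, as given above.

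The labels do not say whether a replicate number marks a shared batch. Serial numbers in the sample names run through the first replicates of all groups and then the second. A shared batch was not tested beyond the values given here, which do not settle it. Deviations from the group means correlated at 0.0407 between WT and PSD1_oe and at 0.194 between WT and PSD1_oe_pdr3del. Between PSD1_oe and PSD1_oe_pdr3del the correlation was -0.0203. With the replicate number as a block, 5, 0 and 3 members and 3491, 1393 and 2483 loci were called.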
